A study of Homo sapiens with 20 samples.

Results

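RNA-seq libraries of 2 sets, each covering the same 10 days of erythroid differentiation of HUDEP-2 cells, were compared with each other at equal day. HUDEP-2 cells come from human umbilical cord blood and were immortalized at the progenitor stage, so that every library is from 1 line, here with a wild-type genotype. The first set is the 10 libraries that share a single table over all days (the all-days set), and the second is the 10 libraries spread over 3 further tables (the split set: days 0 to 6, days 7 and 8, and day 12). These 20 libraries, 10 in each set and 1 per set and day, are all the samples of the series, and they were chosen by the table in which they were deposited and not by any measured value. Day 0 cells were expanding in serum-free medium with erythropoietin, stem cell factor and doxycycline, and by the study's methods also dexamethasone, a glucocorticoid. On the later days both sets were in differentiation medium with holo-transferrin, human serum, insulin, heparin and erythropoietin, from which stem cell factor was left out from day 6 and doxycycline from day 8. Poly(A)-selected stranded libraries were made from total RNA. The labels do not say what sets the tables apart, so culture, RNA preparation, library preparation and sequencing cannot be told apart as the source of a difference between the sets. Nothing in them says either that the days of a set came from separate cultures, so the p-values measure the spread between these libraries.

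Erythroid differentiation takes a dividing proerythroblast through a few divisions in which it fills with hemoglobin, shrinks, condenses its nucleus and stops making ribosomes. Along the way the receptor KIT and stem cell genes are shut down, while globins, heme enzymes and membrane skeleton genes are turned up, and most other transcripts are lost. Genes of the immediate early class, interferon-stimulated genes and metallothioneins also answer to signals from the medium, such as growth factors, cytokines and metals.

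Depth ranged from 52131713 to 70358198 counts per library. Of these, ribosomal RNA took 17.6% and 16.8% in the split libraries of days 7 and 8 and 0.737% to 2.68% in the others, and these 2 libraries also held more histone and small non-coding RNA than the all-days libraries of the same days. Results without days 7 and 8 are therefore also given below for several lists and genes. The placement of the libraries along the course and the change between early and late days were not repeated without both days. Day for day, between 69.2% and 82.4% of the genes differed beyond sampling noise, so no pair was counted as 1 library. By itself this difference does not show that a pair came from separate cultures. The sample titles label the libraries of each day as replicates. For a comparison between days of differentiation, the study calls its samples biological replicates. The deposited columns carry no replicate numbers, so which replicate belongs to which set is not known. In all libraries the erythroid genes GATA1 (124 to 335 CPM, read counts scaled to library size) and KLF1 (292 to 1497 CPM) were present. Differences are given as log2 of the all-days set over the split set, averaged over the 10 days in a fit with the day as a block, so that a positive value means higher in the all-days set. Every adjusted p below is from edgeR's quasi-likelihood test with Benjamini-Hochberg adjustment over all genes.

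Of 16784 genes tested, 5488 (32.7%) differed between the sets at equal day. In the all-days set 2605 genes (15.5%) were higher and 2883 (17.2%) lower, and 292 and 735 of them by at least 2-fold. Higher genes made up 47.5% of the calls, and 58.3% when limma was run on log2(TPM + 1) in place of counts. The median log2 difference was -0.03 over all genes and 0.41 in size over the called ones, so most differences were small, and 1731 of the called genes had the same direction on all 10 days. The set difference of a day correlated across genes with that of the other days at a median r between 0.27 and 0.51 for days 0 to 8. Day 12 stood apart, with r between -0.00 and 0.07 with each other day. These correlations are across genes, which are not independent replicates, and they are given as a description. In days 0 to 6 alone 7314 of 15890 genes were called, 3554 of them higher. Without days 7 and 8 it was 5245 of 16524, 2533 of them higher. Without day 12 it was 6886 of 16332, 3473 of them higher. List counts given below for these choices of days are to be read against these shares.

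The genes furthest apart differed by more than 3-fold on average and in the same direction on every day. EPB41L3, a band 4.1 family protein that links the membrane to the cytoskeleton, lay between 0 and 0.288 CPM (median 0.0571) in the all-days set and between 0.0968 and 22.9 CPM (median 7.49) in the split set. That is 53 counts in 10 libraries against 6080, and a log2 difference of -6.68 (standard error, SE, 0.44, adjusted p = 9.9e-07). The next genes on the low side were ZNF43, a zinc finger gene (log2 -4.14, 148 counts against 2883), LPL, lipoprotein lipase (-3.43), the lysosomal membrane protein gene TMEM74 (-3.39), the calmodulin-dependent kinase CAMK2D (-3.32), the receptor phosphatase PTPRK (-3.24), the calcium release channel RYR2 (-3.22), FOSB (-3.20), FOS (-3.13) and SHTN1 (-3.13). On the high side stood CIBAR1, which was between 0.106 and 9.52 CPM (median 5.87) in the all-days set and between 0 and 1.26 CPM (median 0.885) in the split set (log2 2.79, SE 0.17, adjusted p = 7.1e-07). It was followed by RYR3, another calcium release channel (2.78), FCGRT, the neonatal Fc receptor (2.75), FAM184B (2.72), the sulfotransferase CHST3 (2.61), the glycosyltransferase MGAT4A (2.42), ZNF141 (2.03), PLTP, phospholipid transfer protein (1.91), RCN3 (1.89) and CYTL1 (1.85). These 20 genes had the same direction on all 10 days, as the rule by which they were picked demands, and 1518 genes met that rule.

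The first question was whether a set runs ahead in differentiation. Each library was placed at the point of the other set's course, interpolated between days, to which it was closest over all genes tested. The all-days libraries of days 0, 1, 2 and 3 fell at 0.3, 1.5, 2.35 and 3.5 days of the split course. Those of days 4, 5, 6, 7 and 8 fell at 3.55, 4.5, 4.55, 6.5 and 6.45 days, and that of day 12 at day 12. Seen from the other side, the split libraries of days 4, 5, 6, 7 and 8 fell at 4.45, 5.5, 6.35, 7.45 and 8.75 days of the all-days course. By this measure the all-days set was ahead on 4 days (0, 1, 2 and 12, by at most 0.375 day) and behind on 6 (days 3 to 8, by at most 1.15 days). No library could be placed before day 0 or after day 12. Both libraries of day 3 fell ahead of their label, the all-days one at 3.5 and the split one at 3.55 days. Many placements lay near the middle between 2 days, where the course is a mean of 2 libraries. The part of the method in these leads was not tested.

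Averaged over the 10 days the lead of the all-days set was -0.268 day (SD 0.511, n = 10 days), which did not pass the two-sided exact permutation test over all swaps of the libraries within days (p = 0.17, smallest possible 0.0020). Over days 3 to 8 alone the mean was -0.583 day and over days 0 to 2 it was 0.167 day, a split made after the values were seen and not tested. The values of days 7 and 8 involve the split libraries rich in ribosomal RNA, whose part was not tested. The mean lead was -0.247 day without day 7 and -0.167 day without day 8, and it was not computed without both. The late erythroid panel alone (25 genes) gave -0.535 day and the progenitor panel alone (20 genes) -0.408 day, as descriptions. A mean lead was therefore not shown, while the lead was below 0 on each of days 4 to 8 over all genes and in both panels.

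Genes that change along the course were grouped by their change in these same libraries, so the values that follow are a description. A total of 2829 genes rose at least 2-fold from day 0 to day 8 in the mean of both sets. Of these, 685 (24.2%) were lower in the all-days set and 133 (4.70%) higher, against the background of 17.2% and 15.5%. Their median log2 difference was 0.03 on day 0, -0.15 on day 4, -0.30 on day 6, -0.42 on day 7 and -0.61 on day 8, and it was back at -0.06 on day 12. With the class taken from the rise to day 6, before the 2 libraries rich in ribosomal RNA, 330 of 1345 (24.5%) were lower and 87 (6.47%) higher. With a rise required in each set, 500 of 1731 (28.9%) were lower and 94 (5.43%) higher. The 3239 genes that fell from day 0 to day 8 had 704 (21.7%) higher and 547 (16.9%) lower, and the 2037 that fell to day 6 had 285 (14.0%) higher and 405 (19.9%) lower, so the fallers leaned to no constant side. Across genes, the set difference of a day correlated with the change between its neighbour days at r = -0.04 on day 4, -0.175 on day 6, -0.28 on day 7 and -0.31 on day 8. The split libraries of days 7 and 8 are those rich in ribosomal RNA, whose part in these values was not tested.

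Among the genes that build the red cell, the globins differed by kind. Of the 10 globin genes 6 were lower in the all-days set and none higher. The embryonic genes led: HBZ, the embryonic alpha-type chain, was between 2.73 and 9.01 CPM (median 6.10) in the all-days set and between 2.68 and 84.0 CPM (median 18.3) in the split set, a log2 difference of -1.47 (SE 0.27, adjusted p = 0.0013). The sets began at 2.73 and 2.68 CPM on day 0, and the split set rose to 27.9 CPM by day 3, where the all-days set held 7.07. HBE1, the embryonic beta-type chain, was lower by -1.04 (adjusted p = 0.0019). On days 0 to 8 it held at most 1.06 CPM in the all-days set and 3.10 in the split set, and on day 12 51.3 against 103. Its log2 difference was -0.004 on day 5 and 0.50 on day 6. The fetal genes were lower on all 10 days, HBG1 by -0.91 (SE 0.09, adjusted p = 1.8e-05) and HBG2 by -0.76 (SE 0.09, adjusted p = 4.6e-05). HBG1 went from 11.1 to 5845 CPM in the all-days set and from 17.7 to 10190 CPM in the split set between day 0 and day 12.

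The adult chains differed less or not detectably. HBA1 was lower by -0.49 (adjusted p = 0.0072) and HBA2 by -0.33 (adjusted p = 0.031), the latter lost in 7 of the alternatives tried. Both were lower on 9 days and higher on day 12, when globin is highest, with HBA1 at 157600 CPM against 118100 and HBA2 at 146400 against 108200, and the median of the 10 globins was 0.24 on that day. HBB had a log2 difference of 0.07 (SE 0.09, adjusted p = 0.57) and HBD -0.19 (SE 0.12, adjusted p = 0.26). HBB ranged from 5445 to 397900 CPM in the all-days set and from 4826 to 258800 CPM in the split set. HBA1 and HBA2, like HBG1 and HBG2, are near-identical copies whose reads can be divided between them in the counting, so the values of each pair are less certain singly than together. In bulk RNA, fewer cells of a stage and less RNA per cell cannot be told apart, for these and all genes below.

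Of the 25 genes of the late erythroid panel, 9 were lower and 2 higher in the all-days set (median -0.15). The mitophagy receptor BNIP3L (-0.49), HEMGN (-0.74), the bisphosphoglycerate mutase BPGM (-0.47) and AHSP, the chaperone of free alpha globin (-0.37), were lower. HEMGN was between 121 and 1094 CPM in the all-days set and between 127 and 1500 CPM in the split set, and higher in the split set on each day. ALAS2, the first enzyme of heme synthesis in red cells, was at -0.02 (SE 0.13, adjusted p = 0.95), and SLC4A1, the anion exchanger band 3, at -0.27 (SE 0.16, adjusted p = 0.22). The average of ALAS2 covers differences of both signs, with 323.1 CPM against 187.3 on day 1, 1534 against 2198 on day 8 and 5077 against 3779 on day 12. The panel's median by day was 0.14 and 0.30 on days 0 and 1 and between -0.50 and -0.13 on the 8 later days. In days 0 to 6 alone 5 were higher and 8 lower.

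The progenitor panel leaned the other way, with 7 of 20 members higher, 3 lower and a median of 0.32. By day its median was -0.115, -0.0881 and -0.0129 on days 0, 1 and 2, between 0.101 and 0.388 on days 3 to 8, and -0.25 on day 12. CDK6, a cyclin-dependent kinase of dividing blood progenitors, was between 7.49 and 246 CPM (median 175) in the all-days set and between 10.0 and 69.8 CPM (median 29.4) in the split set (log2 2.23, SE 0.29, adjusted p = 1.0e-04). It was higher on 9 of 10 days, and the exception was day 12. CD44, an adhesion receptor, was higher by 0.41 and MYB, a progenitor transcription factor, by 0.34 (adjusted p = 0.041, lost in some of the alternatives). BTK, a kinase of mast and B cells, was lower by -0.54 and GATA2, the GATA factor that precedes GATA1, by -0.52, both on all 10 days. KIT, the stem cell factor receptor, was not called (0.30, SE 0.24, adjusted p = 0.36). It stood at 614 CPM against 741 on day 0 and at 111 CPM against 28.2 on day 8.

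Of the regulators of the lineage, GATA1 was at -0.01 (SE 0.06, adjusted p = 0.88), EPOR, the erythropoietin receptor, at -0.06 (adjusted p = 0.47), TFRC, the transferrin receptor, at 0.08 (adjusted p = 0.60) and TRIM10 at -0.07 (adjusted p = 0.79), none of which passed the test. For each of these genes the average covers differences of both signs. TFRC stood at 5096 CPM in the all-days set against 3267 on day 1 and 2204 against 3514 on day 12. EPOR stood at 81 CPM against 68 on day 1 and 270 against 357 on day 8. GATA1 stood at 227 CPM against 268 on day 8 and 335 against 265 on day 12. TRIM10 stood at 67.7 CPM in the all-days set against 102.1 on day 6 and 269.6 against 172.9 on day 7. On day 8 it was at 236.4 against 160.9 and on day 12 at 100.3 against 179.8. KLF1 (-0.17, adjusted p = 0.039) and TRIM58, which takes part in nuclear expulsion (-0.20, adjusted p = 0.042), were slightly lower and lost the call in 11 and 13 of the 21 alternatives. Of 15 erythroid transcription factors 5 were lower and 2 higher. ZBTB7A (-0.54) and ZFPM1, the GATA1 cofactor (-0.44), were lower on all 10 days and SOX6 (-0.50) on 9, and IKZF3 was higher (1.28). Heme synthesis had 3 of 20 genes higher and 2 lower, with FECH, which inserts the iron, at 0.30 and CPOX at -0.45. Iron handling had 6 of 20 higher, among them NFS1 (0.49), and 4 lower, among them GLRX5 (-0.36). The last 2 lists did not lean to either side.

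Interferon response genes were among the lists that differed most. Of 33 tested, 19 (57.6%) were lower in the all-days set and 1 was higher, with a median of -0.75, and their summed level was lower on each of the 10 days (309 to 939 CPM against 396 to 1140). HERC5, the ligase of the ubiquitin-like ISG15, was between 2.06 and 6.60 CPM (median 4.76) in the all-days set and between 3.16 and 27.6 CPM (median 21.2) in the split set (log2 -2.10, SE 0.16, adjusted p = 2.4e-06). The groups overlapped only through the day 12 library of the split set. RSAD2, the antiviral protein viperin, was lower by -1.35 (adjusted p = 1.1e-05), and the restriction factors IFITM2 and IFITM3 by -1.42 and -1.61, all on 10 of 10 days. IFITM2 and IFITM3 are close copies, so reads may have been divided between them. By day the median of the list was -1.12 on day 1 and between -0.76 and -0.31 on the others.

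Genes of this list are known to be driven through the interferon-stimulated response element. Its core, GAAA, any 2 bases and GAAA again, on either strand, was looked for in the 150 bases before the start of each gene in RefSeq (GRCh38.p14), where 1.79% of 27303 promoters held it. The core was found in 10 of the 15 lower genes that have a promoter there, in 4 of the 8 that were not called and in the 1 that was higher. The promoters of 3 of the 4 genes named above were in the table and are shown because these genes moved together, with the matches in capitals and overlapping matches run together. HERC5 (chr4:88456969-88457118, plus strand) has 3 matches, IFITM3 (chr11:320861-321010, minus strand) 2, and RSAD2 (chr2:6865735-6865884, plus strand) none at this spacing.
HERC5: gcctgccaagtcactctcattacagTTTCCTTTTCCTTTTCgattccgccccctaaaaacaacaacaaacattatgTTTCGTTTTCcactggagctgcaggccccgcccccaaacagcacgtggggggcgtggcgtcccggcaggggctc
IFITM3: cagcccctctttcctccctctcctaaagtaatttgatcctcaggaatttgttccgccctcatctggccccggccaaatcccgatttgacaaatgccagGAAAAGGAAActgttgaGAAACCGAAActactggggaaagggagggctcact
RSAD2: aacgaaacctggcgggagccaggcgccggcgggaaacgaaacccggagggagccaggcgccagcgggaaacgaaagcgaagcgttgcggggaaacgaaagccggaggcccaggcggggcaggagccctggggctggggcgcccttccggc
A match describes the letters and not a bound site.

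Immediate early genes, which signalling through growth factor and stress kinases switches on within minutes, were lower in 15 of 24 cases (62.5%) and higher in none, with a median of -0.91. FOS was between 0.405 and 84.1 CPM (median 1.62) in the all-days set and between 6.32 and 90.4 CPM (median 25.7) in the split set (log2 -3.13, SE 0.70, adjusted p = 0.0042). The gap was not even: on days 0, 4 and 12 the all-days set held 9.87, 13.6 and 84.1 CPM against 14.7, 19.2 and 90.4, and on the other 7 days it held between 0.405 and 2.49 CPM against 6.32 to 41.0. FOSB followed with -3.20 (adjusted p = 1.6e-04), JUND with -1.24, JUNB with -0.92 and the phosphatase DUSP1 with -0.70, each lower on 10 of 10 days. NF-kB targets had 5 of 11 lower and 1 higher (CD83 -1.98, RELB -0.99, BCL3 -0.98, NFKB2 -0.57). Glucocorticoid targets had 6 of 12 lower and none higher, with ERRFI1 at -0.90, DUSP1 at -0.70, TXNIP at -0.45 and KLF9 at -0.43, with 5 lower and 5 higher of 11 in days 0 to 6 alone. Targets of EPO and STAT5 had 6 of 19 lower and 3 higher. In this list SOCS3, the feedback inhibitor of cytokine receptors, was at -1.55, ID1 at -0.71, DUSP6 at -0.62 and ERFE, the erythroid hormone that lowers hepcidin, at -0.40.

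Metallothioneins, small cysteine-rich proteins that bind zinc and copper, went the other way. Of 13 genes of metallothioneins and zinc handling 6 (46.2%) were higher in the all-days set and none lower. The summed level of the list did not lean the same way on each day. It was lower in the all-days set on 4 of the 10 days, with a median of 479 CPM against 468 and with 1071 against 1724 on day 12. MT1G was at 0 counts on day 0 in both sets, reached 25.1 CPM against 7.42 on day 1, and stayed higher in the all-days set through day 12 (log2 1.79, SE 0.15, adjusted p = 1.0e-05). MT1E (2.52, adjusted p = 7.3e-06) and MT1H (2.30, adjusted p = 2.3e-05) were higher on 9 days each at no more than 7.53 CPM. MT2A, at 0.668 to 60.3 CPM against 0.163 to 51.3, was higher on all 10 days (0.58, adjusted p = 0.0011). The metallothionein genes resemble each other, and reads may have been divided among them. With at least 10 counts required in every library, 2 of the list were called higher and none lower.

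The factor that induces these genes binds the metal response element, whose core TGCACNC or TGCGCNC was looked for on both strands in the same windows. It occurred in 17.2% of 27303 promoters, at least 3 times in 0.678%. It was found in 3 of the 4 higher members that have a promoter there and in 2 of the 5 that were not called. The promoters of MT1H (chr16:56669664-56669813, plus strand, 5 matches) and MT2A (chr16:56608434-56608583, plus strand, 4 matches) are shown with the matches in capitals.
MT1H: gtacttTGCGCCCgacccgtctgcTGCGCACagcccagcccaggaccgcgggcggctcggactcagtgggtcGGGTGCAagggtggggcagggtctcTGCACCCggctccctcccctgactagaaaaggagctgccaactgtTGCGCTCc
MT2A: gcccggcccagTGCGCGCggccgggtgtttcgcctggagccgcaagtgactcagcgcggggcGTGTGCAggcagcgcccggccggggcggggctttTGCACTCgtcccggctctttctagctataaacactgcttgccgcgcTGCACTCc
Both windows hold a match that ends next to the start of the gene.

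**Figure D1:**
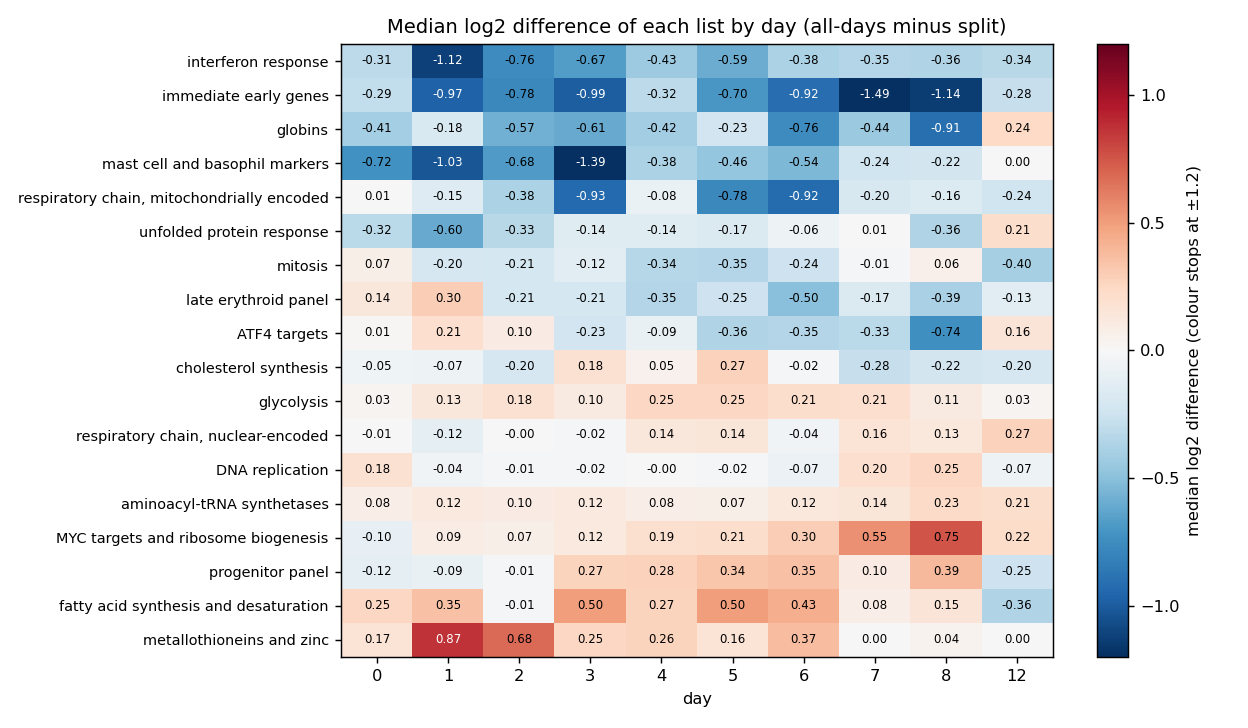
Median log2 difference (all-days minus split) of the tested members of 18 gene lists on each day, printed in each cell, with blue for lower and red for higher in the all-days set. Interferon and immediate early genes are below 0 on all 10 days, and ribosome biogenesis genes climb from -0.10 on day 0 to 0.75 on day 8. The late erythroid and progenitor panels change sign after days 1 and 2, and the progenitor panel is below 0 again on day 12.

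Among the lists for growth and protein synthesis, ribosome biogenesis leaned furthest to the all-days set. Of 30 MYC targets and ribosome biogenesis genes 15 were higher and none lower, with a median of 0.25. Their summed level was lower in the all-days set on 4 of the days. POLR1A, the catalytic subunit of RNA polymerase I, was between 14.4 and 237 CPM (median 210) against 13.6 and 174 CPM (median 119), a log2 difference of 0.76 (SE 0.11, adjusted p = 1.9e-04). RRP12 (0.61), UTP20 (0.55) and POLR1C (0.42), all factors of ribosome assembly or its RNA, were also higher. The median of the list climbed from -0.10 on day 0 to 0.30 on day 6, 0.55 on day 7 and 0.75 on day 8, and 9 members had a difference that was more positive on the late days. Since the split libraries of days 7 and 8 are those rich in ribosomal RNA, the count was repeated without these days, where 11 were higher and 2 lower. In days 0 to 6 alone 16 were higher and 4 lower.

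Aminoacyl-tRNA synthetases, which load amino acids onto tRNA, had 7 of 20 higher and 1 lower, and their summed level was higher in the all-days set on each day. QARS1 (0.28), VARS1 (0.45), KARS1 (0.20) and NARS1 (0.23) were the named members. Translation factors had 10 of 36 higher and 5 lower, with EIF3C at 0.34, the sensor kinase EIF2AK4 at 0.47, EIF3E at 0.23 and EIF2S2 at -0.38. Serine and folate genes had 7 of 20 higher and 1 lower (AHCY 0.44, MTR 0.44, SHMT1 0.33, AMT 1.38 at no more than 1.32 CPM). Amino acid transporters had 2 of 17 higher, among them SLC7A6 (0.42), and 5 lower, among them SLC1A4 (-1.09), and 5 higher and 2 lower without days 7 and 8. Ribosomal proteins themselves stayed below the background of 15.5% higher and 17.2% lower over all days. Of 85 cytosolic ones 11 were higher and 5 lower (RPL30 0.40, RPS27L -0.28), and of 78 mitochondrial ones 12 were higher and 6 lower (MRPS24 0.40, MRPL13 0.36, MRPS7 0.32, MRPS27 0.30). In days 0 to 6 alone the lower ones outnumbered the higher ones in both lists, 37 to 14 and 26 to 9. Proteasome subunits had 6 of 41 higher and 5 lower (PSMD2 0.26, PSMD7 -0.26), and 8 higher and 14 lower in days 0 to 6 alone.

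The respiratory chain is encoded in the nucleus and in mitochondrial DNA. Of 83 nuclear genes of the respiratory chain 22 (26.5%) were higher and 8 lower (25 and 16 in days 0 to 6 alone, 25 and 13 without day 12), and their summed level was higher in the all-days set on each of the 10 days (8360 to 10110 CPM against 6929 to 9114). The median member did not follow the sum on every day. It was -0.006, -0.12, -0.0007, -0.02 and -0.04 on days 0, 1, 2, 3 and 6 and between 0.13 and 0.27 on the others. ATP5F1A, the alpha subunit of ATP synthase, was between 252 and 1170 CPM (median 1101) against 232 and 732 CPM (median 642), at 0.71 (SE 0.07, adjusted p = 1.3e-05). NDUFB9 (0.66) and NDUFV1 (0.38) of complex I and UQCRC2 (0.36) of complex III were higher on all 10 days. Of the 13 genes encoded by mitochondrial DNA, 8 (61.5%) were lower and none higher, and their summed level was lower on each of the 10 days. ATP6 was lower by -0.62, COX2 by -0.51, ND4 by -0.47 and COX1 by -0.44. The gap of this list was uneven, with medians of -0.93, -0.78 and -0.92 on days 3, 5 and 6 and of 0.01, -0.15 and -0.08 on days 0, 1 and 4.

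Glycolysis had 9 of 22 genes higher and 4 lower. The red cell pyruvate kinase PKLR was at 0.64 (406 CPM against 282 at the median), GPI at 0.65 and PFKL at 0.39, all on 10 of 10 days, and the neuronal-type enolase ENO2 at -1.02. Fatty acid genes had 6 of 13 higher and 1 lower, with ACACA, which makes malonyl-CoA, at 0.61, GPAM at 0.51 and ACLY at 0.38 against LPIN1 at -0.80. Cholesterol synthesis had 3 of 26 higher and 6 lower, with STARD4 at -0.47, IDI1 at -0.36 and SC5D at -0.32 among the lower ones. STARD4 and SC5D, like PFKFB4 and PTGES3 below, lost the call with limma on TPM. In days 0 to 6 alone 7 were higher and 5 lower.

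Of the cell cycle genes, those of mitosis leaned lower, and those of replication leaned higher mainly with days 7 and 8 included. DNA replication had 12 of 41 genes higher and 3 lower (POLD1 0.31, MCM5 0.25, MCM7 0.23, DUT -0.33), and mitosis had 15 of 40 lower and none higher. NUF2 of the kinetochore was at -0.66, the centromeric histone CENPA at -0.51, the securin PTTG1 at -0.49 and the kinesin KIFC1 at -0.37. The differences are small: KIFC1 had a median of 145 CPM against 190. In days 0 to 6 alone the replication list gave 14 higher and 12 lower and mitosis 23 lower and none higher. Over all genes 7314 of 15890 were called there, 3554 of them higher. Without days 7 and 8 replication gave 8 higher and 6 lower, near the shares over all genes. The median of the replication list was 0.18 on day 0 and between -0.07 and -0.004 on days 1 to 6. It was 0.20 and 0.25 on days 7 and 8 and -0.07 on day 12. Cell cycle regulators had 8 of 22 lower, among them CCND3 (-0.55), CDKN1B (-0.44) and CDKN2A (-0.43), and 3 higher with CDK6. Of 64 replication-dependent histones, whose transcripts lack a poly(A) tail, 16 were lower and none higher (H2BC12 -0.92, H2AC20 -1.22, H2AW -0.99, H1-2 -0.74). Their median was -3.56 and -3.69 on days 7 and 8, -1.08 on day 5 and 0.16 on day 2, and 7 were lower without days 7 and 8. Ribosomal RNA genes gave medians of -2.51 and -1.91 on these 2 days with 2 of 30 called, RNA5-8SN1 (2.73) and RNA5-8SN3 (2.13), both higher. Both rest on few counts, 110 against 22 and 268 against 91 over the 10 libraries of each set. In 9 and 5 of the split libraries they held at most 3 counts. Small non-coding RNAs had 9 of 305 higher and 12 lower (20 and 6 of 265 without days 7 and 8). The last 3 lists moved with the ribosomal RNA share of these libraries, whose part was not tested.

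Among the lists of stress genes, the unfolded protein response had 7 of 18 lower and none higher (MANF -0.66, DNAJB9 -0.45, XBP1 -0.45, HERPUD1 -0.40), with a median of -0.60 on day 1. ATF4 targets had 8 of 30 lower and 1 higher, with CEBPB at -1.24, PPP1R15A at -0.53 and CEBPG at -0.49 against STC2 at 1.33, and 5 lower and 3 higher without days 7 and 8. Heat shock genes had 6 of 18 lower and 1 higher (HSPB1 -0.54, DNAJB4 -0.45, BAG3 -0.35, SERPINH1 0.39). Hypoxia targets had 6 of 19 lower and 1 higher (MXI1 -0.47, PFKFB4 -0.36, SLC2A1 -0.34, P4HA1 0.47), and 5 lower and 4 higher without days 7 and 8. Of the p53 targets, 4 of 20 were lower and 3 higher, shares near those over all genes. The death receptor FAS was lower by -0.81, the cell cycle inhibitor CDKN1A by -1.56, the cytokine GDF15 by -1.45 and BBC3 by -0.70, and these are the 4 lower ones. GDF15 was at 2.59 CPM against 16.5 on day 0, 53.3 against 409 on day 8 and 9088 against 8850 on day 12. The next lists were also near the background or below it, except autophagy and lysosome on the lower side. Chaperones of hemoglobin and protein folding had 3 of 22 higher (CCT7 0.22) and 4 lower (PFDN4 -0.51, PTGES3 -0.24). NRF2 targets had 2 of 24 higher (SOD2 0.34, TKT 0.23, each lost in 2 or 3 of the alternatives) and 4 lower (PRDX5 -0.47, TXN -0.33). Autophagy had 3 of 34 higher and 11 lower (ATG4A -0.72, TFEB -1.44 at no more than 0.608 CPM, ATG16L1 0.25), and 8 and 8 without days 7 and 8. Lysosome had 4 of 23 higher (PSAP 0.35) and 7 lower (CTSL -0.50, NPC2 -0.41, CTSZ -0.36), and the BCL2 family 3 of 16 higher (BID 0.76, BAK1 0.53) and 3 lower (BCL2L1 -0.41).

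Markers of other blood lineages moved with the sets as well. Of 15 megakaryocyte markers 6 could be tested and 8 held at most 3 counts in every library. Of the 6, 4 were lower in the all-days set and none higher, and their sum was 10.2 to 34.0 CPM against 24.2 to 119 CPM. ITGA2B, the platelet integrin that early erythroid progenitors also carry, was between 0.289 and 14.5 CPM (median 3.96) against 0.685 and 107 CPM (median 20.1), at -2.41 (SE 0.21, adjusted p = 6.5e-06). GP1BB (-1.49), ITGB3 (-1.13) and TUBB1 (-0.79) were lower too. Of 10 mast cell and basophil markers 6 were lower and 1 higher, with a sum of 47.3 to 889 CPM against 53.4 to 2242 CPM. The tryptases TPSAB1 (-1.36) and TPSB2 (-1.29), which are near copies, were lower on all 10 days and ENPP3 (-0.90) on 9. TPSAB1 fell in both sets, from 241 to 0 CPM in the all-days set and from 487 to 1.13 CPM in the split set. Both sums were lower on each of the 10 days, and their part in the other differences was not tested.

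Monocyte and macrophage markers had 2 of 8 lower (VCAN -3.05 at no more than 2.91 CPM, CD68 -0.49) and none higher, with 1 lower and 1 higher and CD68 no longer called without days 7 and 8, and 8 of 19 held at most 3 counts in each library. FCGR3A (-0.82, adjusted p = 0.067) and FCGR1A (0.11, adjusted p = 0.44) did not pass. Of 16 lymphocyte markers 5 could be tested, and CD247 was called (0.89, at a median of 0.665 CPM against 0.469). Complement genes had 5 of 20 lower and 1 higher (C5 -1.50, CFD -1.03, CD55 -0.47), and C3 was lower with 16 counts against 195 over the 10 libraries. Of the 39 HOX genes 5 could be tested and 4 were lower. HOXB2 was at -0.88 (median 7.55 CPM against 14.3) and HOXB7 at -1.19, on each day where it was detected, while HOXB4 (-0.38) and HOXB9 (13 counts against 79) lost the call in 7 or more alternatives.

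Gene length moved with the set difference. With the genes divided by length into 5 equal parts, the median log2 difference was -0.13 in the part with the shortest (up to 1405 nucleotides), with 200 genes higher and 568 lower. Among the longest (from 5123 nucleotides) it was 0.07, with 865 higher and 416 lower. Its part in the differences of the lists was not tested.

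The set difference was not the same on all days. The change of the difference from days 0 to 6 to days 7, 8 and 12 was called for 824 genes (4.91%), 449 more positive and 375 more negative late. The early and late differences had opposite signs in 602 of them. The count rests on single days, with 93 and 110 genes without day 8 and 1354 and 1145 without day 12, and between 159 and 296 and between 145 and 267 without day 1, 2, 3, 4 or 6 or 7. The late days of the split set come from tables of their own, so table and stage cannot be told apart in this change. Genes of ribosome biogenesis (9 of 30), cytosolic and mitochondrial ribosomal proteins (13 of 85 and 10 of 78), translation factors (6 of 36), nuclear respiratory chain genes (6 of 83) and proteasome subunits (6 of 41) became more positive late, and none of them more negative. RRM2, the ribonucleotide reductase subunit, changed by 0.80, EBNA1BP2 of ribosome assembly by 0.71 and the copper pump ATP7B by 1.00. HOMER1 changed by -2.66, the carbonic anhydrase CA3 by -2.50 and CRIM1 by -0.82.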

How the data were processed

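The libraries were compared by day from the deposited tables of 170322 RefSeq transcripts. The submitters' processing notes name Trimmomatic 0.38, HISAT2 2.1.0, StringTie 2.1.3b and hg38. The deposited counts are whole reads per transcript that the authors had not normalized, and they were summed by gene symbol to 46425 genes. The deposited TPM, which the authors scaled for length and library, served alternatives. Of 63 value columns 40 were read, and 23 (FPKM and a further day 0 set) were not used here. How reads shared by transcripts were divided is not given in the sources used here.

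Genes passing filterByExpr were fitted with edgeR 4.0.16 (R 4.3.3; TMM, glmQLFit, glmQLFTest) with day as a block and set as the term (9 residual degrees of freedom), and with a set by late term for days 7, 8 and 12 (8 degrees). Adjusted p under 0.05 was called. For apparent days, log2 CPM values were used (prior count 2). Alternatives were DESeq2 1.42.0, limma 3.58.1, other scalings and filters, and days left out. Scripts were tested on simulated data. A count of 0 allows up to 3 counts, 0.0426 to 0.0575 CPM, counting error only.

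The comparison, its gene lists and the tests were chosen with earlier results of these data known. Named genes were the 10 largest increases and decreases with an adjusted p under 0.05, a mean of at least 100 counts and 1 direction on all 10 days, up to 4 members of each list with the smallest p, a fixed panel of 19 erythroid genes, and the 5 smallest p in each direction for the late term. Splits of genes by their course, single panels and a scaling without ribosomal RNA, histone, small RNA and mitochondrial genes were added after values had been seen. Promoters are from RefSeq GRCh38.p14. A gene that the naming rule picked is not reported here.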

Additional observations from a re-analysis of the deposited data

Results flagged for a closer look

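The genes below were flagged because the difference between the sets at equal day changed from days 0 to 6 to days 7, 8 and 12, by the test of that change itself (edgeR's quasi-likelihood test of the set by late term, Benjamini-Hochberg over all genes). The log2 change was -2.66 for HOMER1 (adjusted p = 4.2e-04), -2.51 for RAVER2 (adjusted p = 0.0022), -2.50 for CA3 (adjusted p = 0.0022), -1.03 for ANKRD10 (adjusted p = 0.0022) and -0.82 for CRIM1 (adjusted p = 0.0022). It was 1.18 for RPL14P1 (adjusted p = 0.0040), 1.00 for ATP7B (adjusted p = 0.0038), 0.80 for RRM2 (adjusted p = 0.0038), 0.71 for EBNA1BP2 (adjusted p = 0.0030) and 0.63 for HNRNPC (adjusted p = 0.0038). RPL14P1 is a pseudogene that can share reads with RPL14.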

How the results depend on the processing

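No paired analysis was possible because the deposited columns carry no replicate numbers, in the sense of a block by replicate number; the reported fits pair the sets by day. The counts of genes higher and lower between the sets stayed within 1.5 times the reported ones under all 21 alternatives, and the mean lead stayed below 0 and short of the threshold under each alternative that gave a test (-0.39 with Spearman's correlation, exact p = 0.066; -0.39 on log2(TPM + 1), exact p = 0.051), between -0.14 and -0.30 with a day left out. The late term gave 1146 and 821 genes with DESeq2, 245 and 434 with limma on log2(TPM + 1), 126 and 249 on log2(TPM + 0.1), and 269 and 211 with no filter beyond 1 count; with a day left out, 93 to 1354 and 110 to 1145. Of 204 called named genes 189 were called under every alternative. Uncalled or weak genes changed sign: ALAS2 (0.05 in both limma fits, 0.03 in days 0 to 6, 0.08 without days 7 and 8, -0.10 to 0.05 with a day left out, where days 3, 4, 5, 6, 7 and 8 gave 0.01, 0.02, 0.01, 0.04, 0.01 and 0.05), GATA1 (0.04 in both limma fits and without days 7 and 8, -0.04 to 0.02 with a day left out), EBNA1BP2 (-0.15 in days 0 to 6, -0.07 without days 7 and 8, -0.00 to 0.09 with a day left out), EPOR (0.02 and 0.00 in the same 2), TRIM10 (0.01 with limma on log2(TPM + 0.1), 0.03 without day 12) and KLRD1 (-0.01 with limma on log2(TPM + 1)). The causes were not tested. With 1 library per set and day, a difference on a single day cannot be tested.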
